A study of Mus musculus with 8 samples.

Results

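Chrna1, Chrnb1, Chrnd, Chrng and Chrne encode the subunits of the muscle acetylcholine receptor, and Musk, Rapsn and Ache encode the kinase, the scaffold and the enzyme that work beside it at the neuromuscular junction. These 8 genes, of 22367 protein-coding genes in the GENCODE vM1 annotation of mm9, were chosen as a set by name and function. Every called interval of myogenin or p300 chromatin immunoprecipitation sequencing (ChIP-seq) that lay within 50 kb of one of the gene bodies was taken. These were 11 of the 5912 myogenin intervals in control, 17 of the 6642 myogenin intervals with bexarotene, 31 of the 22051 p300 intervals in control and 12 of the 9154 p300 intervals with bexarotene.

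The study used C2C12 cells, a mouse myoblast line of C3H origin that exits the cell cycle and fuses into myotubes in low serum. Cells were kept for 24 h in differentiation medium with 2% horse serum, without (Ctl) or with (Bex) 50 nM bexarotene, an agonist of the retinoid X receptor added when differentiation began. Of the 8 samples, 4 have a list of called intervals and were used: 1 myogenin and 1 p300 library per condition, each from this 1 line. The lists give positions only, so they show where an interval was called and not how high the signal was. They do not show the depth of each library, and since each condition rests on 1 library, no replicate error, test or p-value between conditions can be given. The files hold no expression values, so the cell type was not checked against marker genes.

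The muscle receptor is a ligand-gated cation channel that opens when the motor nerve releases acetylcholine. Embryonic muscle assembles it with the gamma subunit, and adult muscle replaces gamma by epsilon at the synapse. Agrin from the nerve activates the receptor kinase MuSK through Lrp4, rapsyn (the product of Rapsn) gathers the receptors beneath the nerve ending, and acetylcholinesterase ends the signal by hydrolysing the transmitter. Myogenin is a basic helix-loop-helix factor of muscle differentiation that binds E-boxes together with E-proteins, and p300 is a histone acetyltransferase that is found at active enhancers and promoters.

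The sequences below are those on which the promoter findings rest, read from the mm9 genome 5′ to 3′ along the named strand, with E-boxes in capitals. An E-box was CAGCTG or CACCTG on either strand, the latter reading CAGGTG on the opposite one, and promoters run from 250 bases before to 50 bases after the annotated 5′ end. The first pair, Chrna1 and Chrng, held intervals of all 4 lists. The Chrnb1 promoter held myogenin intervals of both conditions and a p300 interval of control, the Chrnd promoter held p300 only, and the Chrne promoter held no interval. The last pair shows the interval upstream of Musk called for myogenin only with bexarotene, and the first 200 bases of the bexarotene interval 3′ of Rapsn called in both conditions.
Chrna1 promoter (chr2:73418346-73418645, minus strand): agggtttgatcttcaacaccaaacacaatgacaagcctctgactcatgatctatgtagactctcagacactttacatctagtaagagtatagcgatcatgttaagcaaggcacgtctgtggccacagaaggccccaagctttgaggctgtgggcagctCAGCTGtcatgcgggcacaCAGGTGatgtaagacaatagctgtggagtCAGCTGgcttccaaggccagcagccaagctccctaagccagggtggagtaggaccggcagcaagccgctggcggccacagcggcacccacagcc
Chrng promoter (chr1:89102136-89102435, plus strand): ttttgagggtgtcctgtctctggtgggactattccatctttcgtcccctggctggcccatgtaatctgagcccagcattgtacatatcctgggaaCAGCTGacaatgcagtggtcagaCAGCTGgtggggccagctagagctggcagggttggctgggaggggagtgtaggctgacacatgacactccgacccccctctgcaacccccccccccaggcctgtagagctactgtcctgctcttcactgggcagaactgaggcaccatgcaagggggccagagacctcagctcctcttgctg
Chrnb1 promoter (chr11:69609396-69609695, minus strand): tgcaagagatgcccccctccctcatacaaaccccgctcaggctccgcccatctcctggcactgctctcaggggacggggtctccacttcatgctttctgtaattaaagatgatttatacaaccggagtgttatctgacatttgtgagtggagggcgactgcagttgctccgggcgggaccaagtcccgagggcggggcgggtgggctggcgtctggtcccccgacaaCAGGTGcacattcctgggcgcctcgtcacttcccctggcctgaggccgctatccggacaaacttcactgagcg
Chrnd promoter (chr1:89086977-89087276, plus strand): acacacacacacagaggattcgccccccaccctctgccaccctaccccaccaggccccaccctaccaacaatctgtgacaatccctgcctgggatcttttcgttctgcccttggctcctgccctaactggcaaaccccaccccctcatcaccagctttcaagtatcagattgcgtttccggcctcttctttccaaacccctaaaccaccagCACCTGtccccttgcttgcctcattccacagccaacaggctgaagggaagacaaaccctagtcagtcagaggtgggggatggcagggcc
Chrne promoter (chr11:70432669-70432968, minus strand): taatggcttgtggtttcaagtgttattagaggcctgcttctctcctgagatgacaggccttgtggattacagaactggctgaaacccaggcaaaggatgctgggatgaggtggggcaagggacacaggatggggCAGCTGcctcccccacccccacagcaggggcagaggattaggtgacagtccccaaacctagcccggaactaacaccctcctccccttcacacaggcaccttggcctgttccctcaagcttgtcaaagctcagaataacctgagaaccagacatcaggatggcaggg
Musk upstream interval (chr4:58298435-58298602, plus strand): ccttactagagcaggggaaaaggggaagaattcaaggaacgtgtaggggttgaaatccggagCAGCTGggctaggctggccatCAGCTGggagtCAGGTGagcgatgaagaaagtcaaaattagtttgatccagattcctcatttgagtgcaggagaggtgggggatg
Rapsn downstream interval (chr2:90901112-90901311, plus strand): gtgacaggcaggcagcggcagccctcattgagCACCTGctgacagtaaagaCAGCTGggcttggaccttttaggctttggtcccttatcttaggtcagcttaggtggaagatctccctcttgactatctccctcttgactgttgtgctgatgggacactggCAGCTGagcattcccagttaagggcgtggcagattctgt

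All 8 promoters held at least 1 E-box, whereas 32.0% of 22362 promoters of the same length in the annotation did. The Chrna1 promoter held 3 E-boxes and the Chrng promoter held 2, and the other 6 held 1 each. At least 2 E-boxes were found in 6.65% and at least 3 in 1.26% of all promoters. The presence of these letters did not by itself go with a called interval, since the promoters of Chrne, Rapsn and Ache each held an E-box and no interval of any list.

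Myogenin and p300 were called near 7 of the 8 genes. Where the nearest coding TSS had to be that of a member, 4 genes (Chrna1, Chrnb1, Chrng and Musk) had a myogenin region and 5 (these and Chrnd) a p300 region. The share of all genes under this rule was not computed, and the shares that follow are for the 50 kb window. At least 1 myogenin interval lay within 50 kb of 7 of 8 gene bodies in control and of 7 of 8 with bexarotene, compared with 32.3% and 32.9% of all protein-coding genes. At least 1 p300 interval lay within that distance of 7 of 8 in control and of 6 of 8 with bexarotene, compared with 53.8% and 35.2% of all genes. The median number of intervals per gene was 1 and 3 for myogenin (control, then bexarotene) and 4 and 2 for p300 near these genes, while the medians over all genes were 0, 0, 1 and 0. Ache had no interval in any list.

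The control p300 list, the longest of the 4, gave the most intervals at each gene but Chrnb1 and Ache, with a tie at Rapsn. Chrna1 had 2 myogenin intervals in each condition, and 4 p300 intervals in control against 2 with bexarotene. Chrnb1 had 3 and 2 for myogenin and 2 and 1 for p300. Chrnd had 1 and 3 for myogenin and 6 and 3 for p300, and Chrng had 1 and 3 for myogenin and 5 and 3 for p300. These neighbours share most of the intervals, because Chrng begins 5.741 kb beyond the end of Chrnd, and each shared interval was counted once in the totals. Chrne had 3 and 3 for myogenin and 4 and 0 for p300. Musk had 1 and 3 for myogenin and 11 and 4 for p300, and Rapsn had 1 and 4 for myogenin and 4 and 2 for p300. Of the 8 genes, 4 (Chrnd, Chrng, Musk and Rapsn) thus had more myogenin intervals with bexarotene than in control, and Chrnb1 had fewer. The myogenin intervals of Chrnd and Chrng are the same ones, so these 2 genes count as 1 locus here. The p300 intervals were fewer with bexarotene at each of the 7 genes that had any. The share of all genes with such changes was not computed. With bexarotene the whole list was longer for myogenin and shorter for p300.

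**Figure D1:**
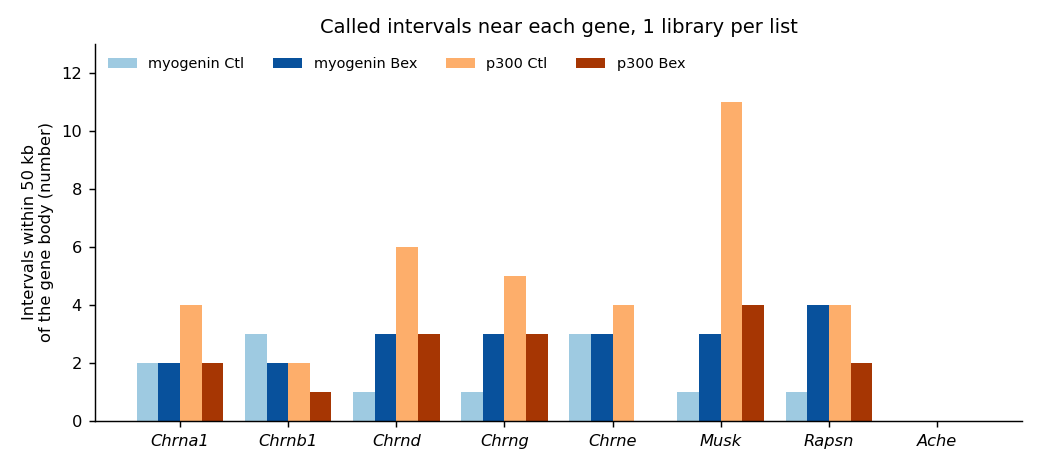
Number of called intervals (y axis) within 50 kb of the body of each gene (x axis), with 1 bar per list and 1 library behind each list. The tallest bar is the 11 control p300 intervals of Musk, and Ache has none in any list.

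The window of Musk was the widest at 191 kb, since its body spans 91.457 kb, and the windows of the other genes ran from 104 kb to 117 kb. Per 100 kb of window, Musk had 5.75 control p300 intervals and Chrnd 5.48, against a mean of 1.09 over all protein-coding genes, and 2.28% and 2.63% of all genes reached these densities. Rapsn had 3.63 bexarotene myogenin intervals per 100 kb, Chrne 2.88, Chrng 2.83 and Chrnd 2.74, against a mean of 0.457, and 2.04% of all genes were as dense as Rapsn. In the control myogenin list Chrne was the densest at 2.88 per 100 kb and Chrnb1 followed at 2.68, against a mean of 0.456. All intervals counted here for Chrne and Rapsn were nearest to the TSS of other genes, as described below. The bexarotene myogenin intervals of Chrnd were the same as those of Chrng, whose TSS was nearest to them. Some of the other intervals counted for Musk, Chrnd and Chrnb1 were nearest to Lpar1, Ecel1 and Polr2a, in that order. By plain number, 1.25% of all genes had as many control p300 intervals as Musk and 4.21% had as many bexarotene myogenin intervals as Rapsn.

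Control and bexarotene intervals of a factor that had 1 bp or more in common were joined into regions, called shared when both conditions contributed. Near the 8 genes 23 myogenin regions were found, of which 6 were control-only (26.1%), 5 were shared (21.7%) and 12 were bexarotene-only (52.2%). Among all 9553 myogenin regions the shares were 30.6%, 31.3% and 38.2%, and the difference was not tested. Of the bexarotene-only myogenin regions, those of Chrng and Musk were nearest to a member TSS. The others were nearest to the TSS of Eno3, Psmc3, Fgf11 or Chn1. Without intervals of the smallest length, 2 control-only, 4 shared and 5 bexarotene-only myogenin regions were left. For p300 there were 32 regions, 20 control-only (62.5%), 11 shared (34.4%) and 1 bexarotene-only (3.12%), and among all 23903 p300 regions the shares were 62.1%, 30.1% and 7.76%. The p300 shares near the genes were thus close to those of the whole lists, in which the control list was the longer, so the lower number of p300 intervals with bexarotene was not shown to be particular to these genes. Where an overlap of 50% of each interval was asked for, 7 shared and 5 bexarotene-only p300 regions were counted, because the longer control intervals at the Chrna1 promoter and at 14.006 kb and 10.359 kb upstream of Musk, and the longer bexarotene interval 3′ of Rapsn, then no longer paired.

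The start sites of the receptor subunits held most of the myogenin regions called in both conditions. The center of a shared myogenin region lay within 1 kb of a transcription start site (TSS) of Chrna1, Chrnb1 and Chrng, 3 of the 8 genes, whereas 1.16% of all protein-coding genes had such a region. A bexarotene-only myogenin region lay within 1 kb of the TSS of 1 of the 8, Musk (2.68% of all genes), and a control-only region within 1 kb of that of 2 of the 8, Chrna1 and Chrnb1 (5.13%). Counted by list, 3 of the 8 genes had a control myogenin interval centered within 1 kb of a TSS (6.05% of all genes) and 4 had one with bexarotene (3.72%). For p300 the counts were 5 of 8 in control (10.6%) and 3 of 8 with bexarotene (5.23%). The 5 genes with a p300 interval at the start in control were Chrna1, Chrnb1, Chrnd, Chrng and Musk, and with bexarotene Chrna1, Chrnd and Chrng had one.

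**Figure D2:**
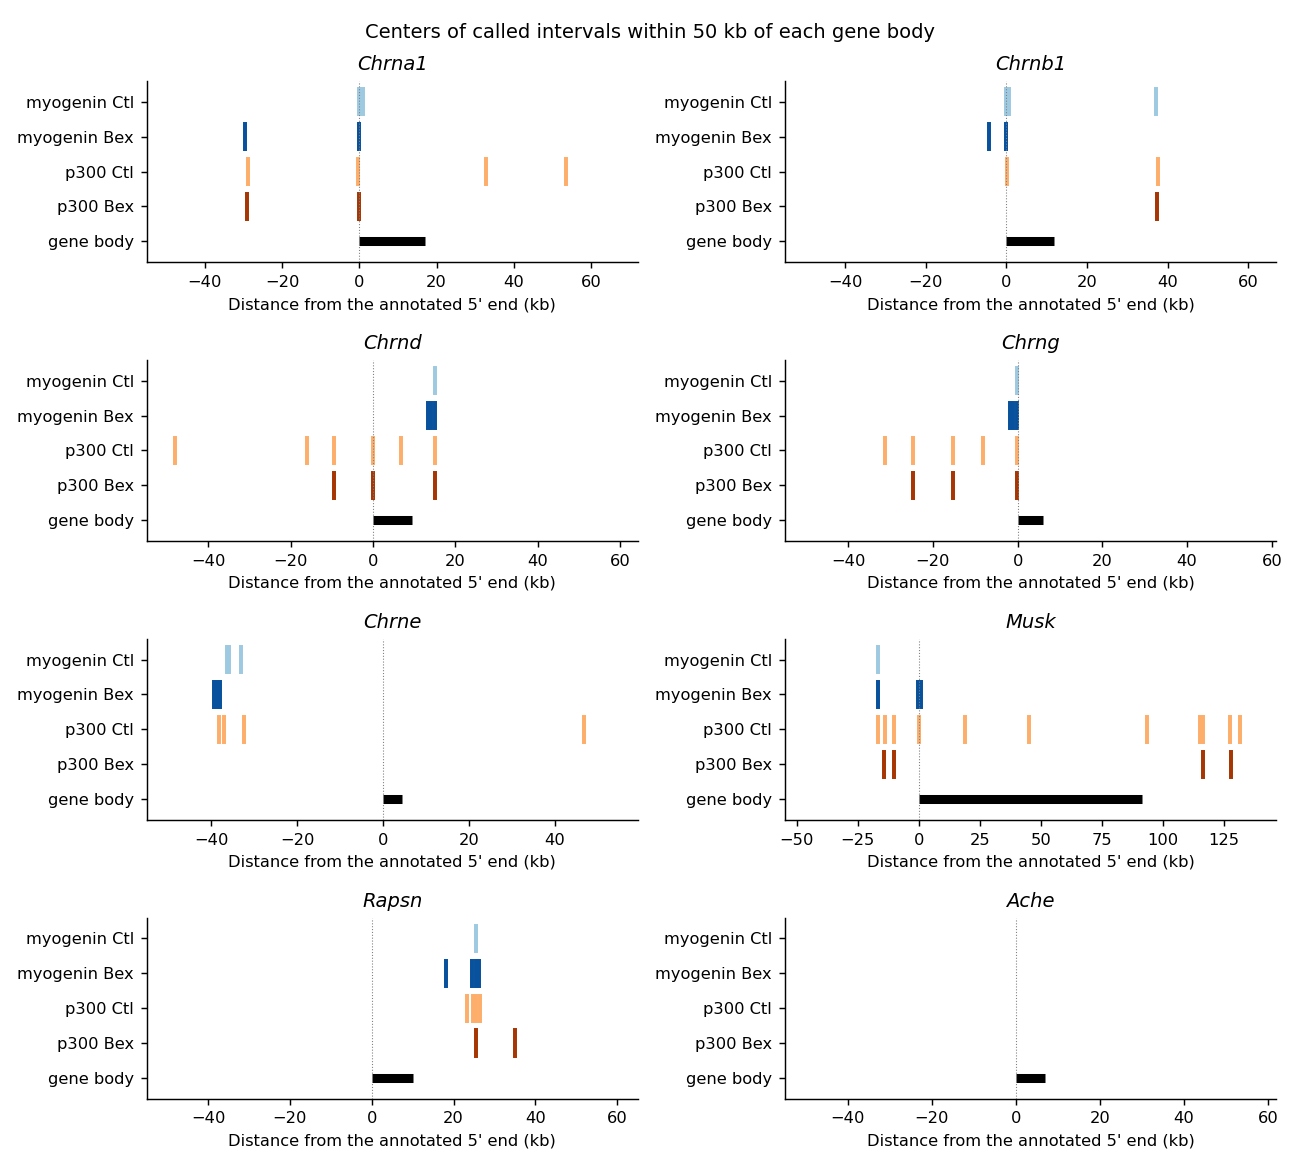
Centers of the called intervals (colored ticks, 1 row per list) by distance in kb from the annotated 5′ end of each gene (x axis, positive in the direction of transcription), with the gene body as a black bar. Ticks at the 5′ end are seen for Chrna1, Chrnb1, Chrnd, Chrng and Musk, whereas those of Chrne lie at least 32.4 kb and those of Rapsn at least 18.182 kb away.

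Chrna1, on the minus strand of chromosome 2 (chr2:73401272-73418395), encodes the alpha subunit, which forms the main face of the acetylcholine binding sites. Its promoter was covered in all 4 lists. The myogenin interval ran over 73418289-73418753 (465 bp) in control and 73418421-73418723 (303 bp) with bexarotene. The control interval was long for its list, with 3.55% of control myogenin intervals as long, and 15.7% of the bexarotene list were as long as 303 bp. The p300 interval ran over 73418317-73418925 (609 bp, 4.24% of the list as long) in control and 73418346-73418591 (246 bp, 28.2%) with bexarotene. The 3 E-boxes of the promoter began 92, 73 and 44 bases before the 5′ end, were separated by 13 and 23 bases, and lay within the intervals of all 4 lists.

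Away from the promoter the conditions differed at Chrna1. A control-only myogenin interval of 172 bp (73417425-73417596) was centered 884 bp into the gene, in intron 1. It held 1 E-box (73417460-73417465), which crossed the edge of the central 100 bp and was not counted as central. A bexarotene-only myogenin interval of 168 bp (73447791-73447958) lay 29.48 kb upstream and held 2 E-boxes. Both had the smallest length of their list. A p300 region shared by the conditions was centered 28.931 kb upstream (73447196-73447456), on the gene side of that bexarotene-only myogenin interval without overlapping it. Both upstream regions were nearest to the TSS of Chn1, at 15922 bp for the myogenin region and 16471 bp for the p300 region. The remaining p300 regions were control-only and 159 bp long, 1 in intron 1 of the neighbour Wipf1 and 1 between Chrna1 and Wipf1.

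Chrnb1, on the minus strand of chromosome 11 (chr11:69597538-69609445), encodes the beta subunit. Its start was covered by myogenin in both conditions, over 69609452-69609723 (272 bp) in control and 69609419-69609681 (263 bp) with bexarotene. Of the lists, 21.2% and 24.6% of the intervals were as long. The single promoter E-box, CAGGTG, began 23 bases before the 5′ end and lay within both myogenin intervals and outside the p300 interval, which ran over 69609298-69609456 (159 bp) and was called in control alone. The center of the merged myogenin region fell in exon 6 of the longest coding transcript of the neighbour Fgf11, a fibroblast growth factor gene. The region as a whole held an E-box, but none within 50 bp of its center.

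The other myogenin regions near Chrnb1 were called in 1 condition only. A control-only interval of 172 bp (69608656-69608827) lay in intron 2, centered 703 bp inside the gene, and held no E-box. A bexarotene-only interval of 213 bp (69613620-69613832) lay 4.281 kb upstream in intron 1 of Fgf11 and held 2 E-boxes 6 bp apart. A control-only interval of 248 bp (69572331-69572578) lay 316 bp from a TSS of Polr2a, which encodes the large subunit of RNA polymerase II. The p300 region called in both conditions near Chrnb1 also lay at that start, with its center in exon 1 of Polr2a at 178 bp from the TSS.

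Chrnd (chr1:89087227-89096644, plus strand) encodes the delta subunit. It was the only one of the 5 receptor genes with p300 and without myogenin at its start. The p300 interval ran over 89086987-89087235 (249 bp) in control and 89087075-89087232 (158 bp) with bexarotene, and both contained the promoter E-box, CACCTG, that began 39 bases before the 5′ end. The nearest myogenin intervals were those of Chrng, at 5.43 kb from the end of the Chrnd body in control and 3.84 kb with bexarotene. The Chrnd promoter also held an N-box, CCGGAA on either strand, the element bound by the Ets factor GABP in synaptic genes. The Chrne promoter held the second N-box of the 8 genes, and 17.5% of all promoters held one.

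Other p300 regions of Chrnd were spread over its 5′ side and body. A shared region lay 9.594 kb upstream (242 bp in control, 158 bp with bexarotene) and held a CAGCTG within 50 bp of its center. Control-only regions lay 48.065 kb upstream, with 2 E-boxes at its center and nearest to Ecel1, 16.142 kb upstream with none, and in intron 10 (269 bp), with 1 E-box outside the central window. All of these except the region 48.065 kb upstream also fell in the window of Chrng.

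Chrng (chr1:89102386-89108410, plus strand) encodes the gamma subunit of the embryonic receptor. Its promoter, like that of Chrna1, was covered in all 4 lists. Myogenin covered 89102074-89102380 (307 bp, 14.4% of the list as long) in control and 89102048-89102364 (317 bp, 13.1%) with bexarotene, and p300 covered 89102171-89102372 (202 bp) and 89102197-89102354 (158 bp). The CAGCTG sites that began 155 and 132 bases before the 5′ end were 17 bp apart and lay within all 4 intervals. With bexarotene, further myogenin intervals were called at 1.136 kb (89101144-89101356, 213 bp, 2 E-boxes) and 1.791 kb (89100487-89100702, 216 bp, 1 E-box) upstream, in the gap between Chrnd and Chrng, and neither overlapped a p300 region. These intervals were longer than the smallest of their list, with 43.6% and 40.1% of the bexarotene intervals as long.

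Chrne (chr11:70428385-70432718, minus strand) encodes the epsilon subunit of the adult receptor. No interval of any list came within 32.3 kb of its body. Its promoter CAGCTG, beginning 116 bases before the 5′ end, lay in none. The 6 myogenin regions of its window clustered 32.998 kb to 39.397 kb upstream, and each was nearest to another gene. The 3 control-only regions were nearest to Pfn1, which encodes the actin-binding protein profilin, at 360, 951 and 2384 bp. The 3 bexarotene-only regions were nearest to Eno3, the muscle enolase of glycolysis, at 20, 30 and 817 bp. Of the 4 p300 regions, which were control-only, Eno3 was nearest to 2, Pfn1 to 1 and Mink1 to 1. The window rule counts these regions for Chrne, and by the nearest TSS Chrne had none.

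Musk (chr4:58298834-58390290, plus strand) encodes the receptor tyrosine kinase that agrin activates. Its start was covered by myogenin with bexarotene and by p300 in control. The myogenin interval, 58298435-58298602 (168 bp, the smallest length of its list), was centered 315 bp upstream and held 3 E-boxes that began 337, 316 and 305 bases before the 5′ end, with 15 and 5 bases between them. The control p300 interval, 58298611-58298769 (159 bp), lay just beyond the end of the myogenin interval and did not overlap it. A further E-box, a CAGCTG that began 68 bases before the 5′ end, straddled the end of that p300 interval. A second bexarotene-only myogenin interval (58299707-58299874, 168 bp) lay in intron 1, centered 957 bp inside the gene, and held 1 E-box.

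The control list had 1 myogenin interval at Musk, and it was called with bexarotene as well. It lay 16.773 kb upstream, over 58281982-58282153 (172 bp) in control and 58281969-58282136 (168 bp) with bexarotene, and the merged region held 2 E-boxes 87 bp apart. It overlapped a control-only p300 interval (58281784-58282079, 296 bp). Shared p300 regions followed at 14.006 kb and 10.359 kb upstream, without an E-box within 50 bp of their centers. In the body, 2 control-only p300 regions lay in intron 5, at 18.762 kb and 45.17 kb from the 5′ end.

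Beyond the 3′ end of Musk lay 5 further p300 regions. The region 127.737 kb from the 5′ end held the longest interval near the 8 genes, at 872 bp in control (58426135-58427006) and 457 bp with bexarotene (58426400-58426856), and 0.798% and 3.62% of the intervals of these lists were as long. A shared region at 116.369 kb measured 341 bp in control and 281 bp with bexarotene. Those at 93.507, 115.187 and 131.551 kb were control-only. All but the one at 93.507 kb were nearest to the TSS of Lpar1, a lysophosphatidic acid receptor gene, although 81890 to 98254 bp from it.

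Rapsn (chr2:90875777-90885886, plus strand) encodes rapsyn, the scaffold of receptor clusters. No interval lay at its start, where a CAGCTG began 22 bases before the 5′ end, and the nearest lay 8.01 kb beyond the end of the body. The regions of both factors gathered 3′ of the gene, mainly in introns 10 and 11 of the longest coding transcript of the neighbour Psmc3, a proteasome subunit gene. The region at 25.414 kb from the Rapsn 5′ end was called for both factors in both conditions. For myogenin it covered 90900956-90901468 (513 bp, 2.35% of the list as long) in control and 90901112-90901434 (323 bp, 11.9%) with bexarotene. For p300 it covered 90901112-90901270 (159 bp) in control and 90901144-90901434 (291 bp) with bexarotene. It held 3 E-boxes, 13 and 104 bp apart, all within the stretch printed above.

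Around that region the bexarotene myogenin list held more intervals than the control list. A bexarotene-only interval of 168 bp (90900286-90900453) held 2 E-boxes 8 bp apart, and another of 227 bp (90901926-90902152) held 1 E-box and overlapped a control-only p300 interval (90902020-90902345, 326 bp). A bexarotene-only interval of 168 bp (90893896-90894063) lay 186 bp from the Psmc3 TSS. Further control-only p300 intervals covered 90898901-90899170 (270 bp) in intron 10 and 90900498-90900736 (239 bp) in intron 11. The only p300 interval with bexarotene near the 8 genes that shared no base with a control interval, 90910702-90910859 (158 bp), lay 207 bp from the TSS of Slc39a13, a zinc transporter gene. All of these regions were nearer to the TSS of Psmc3 or Slc39a13 than to that of Rapsn.

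Ache (chr5:137728747-137735694, plus strand) encodes acetylcholinesterase. Its start was surrounded by 7 E-boxes within 1 kb, of which the promoter CACCTG began 41 bases before the 5′ end, and none lay in an interval. The nearest control p300 interval was 55.7 kb from the body, and the nearest bexarotene p300 interval was 187 kb away. The nearest myogenin intervals were 208 kb away in control and 383 kb away with bexarotene. An absent interval says that the authors' threshold was not passed in that library, not that the factor was absent.

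**Figure D3:**
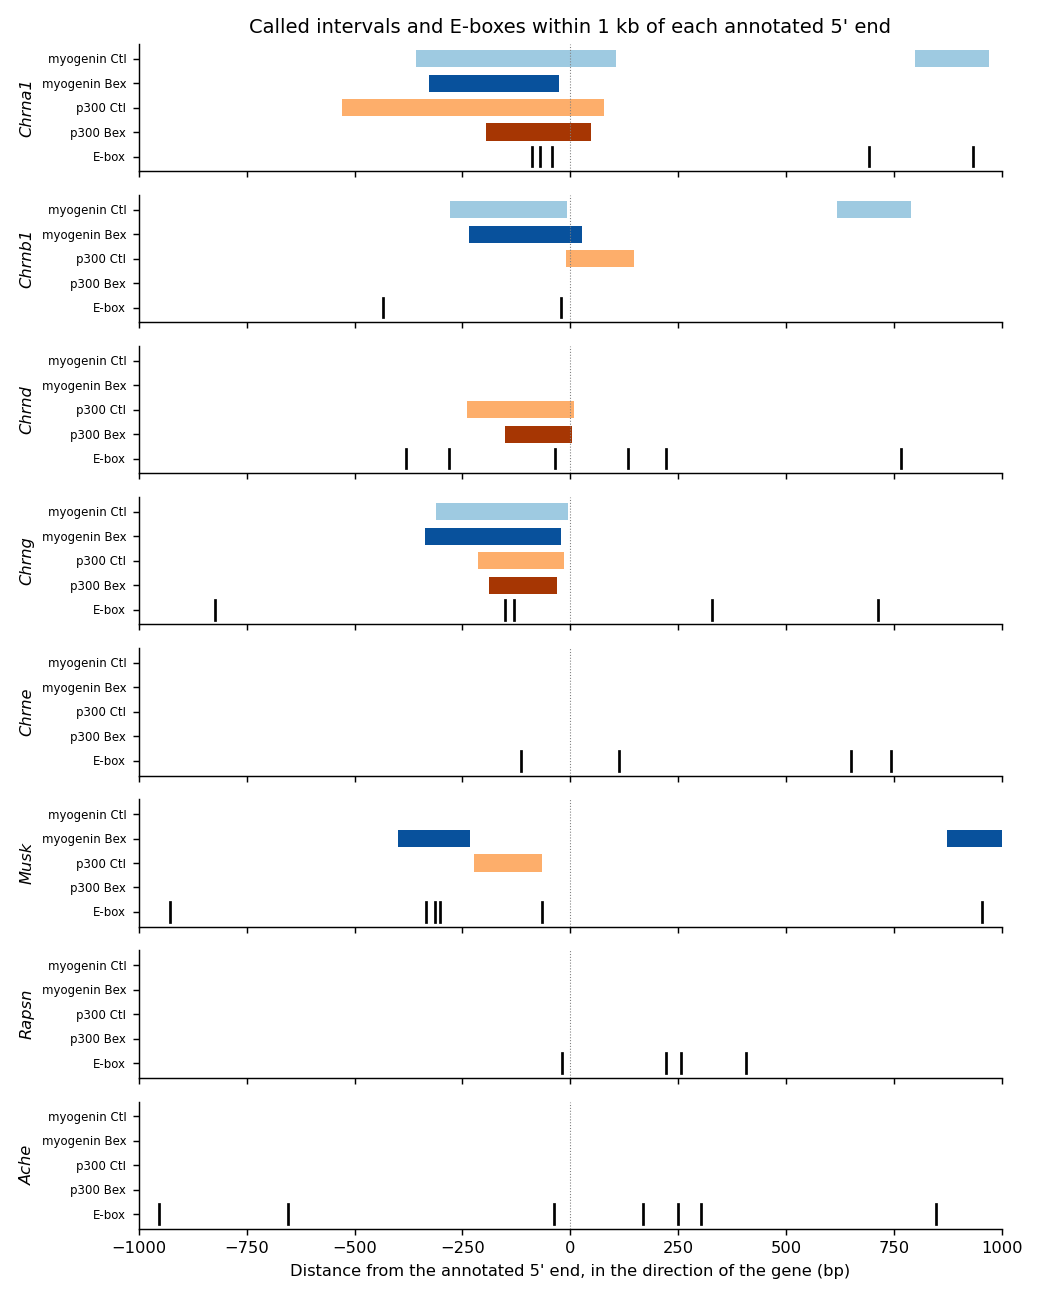
Called intervals (bars, 1 row per list) and E-boxes (black ticks) by distance in bp from the annotated 5′ end (x axis, positive in the direction of transcription) for each of the 8 genes. All 4 lists cover the E-boxes in the 250 bases before the start of Chrna1 and Chrng, and Chrne, Rapsn and Ache have E-boxes and no bar.

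By position, more of the myogenin than of the p300 regions lay close to the start of a member. Starts of other genes, such as Polr2a and Eno3, which had regions of both factors within 1 kb, were left out of the distance counts. Of the 23 myogenin regions, 7 were centered within 1 kb and 10 within 10 kb of the TSS of a member of the set, and the nearest coding TSS was that of a member for 10 and of another gene for 13. Of the 32 p300 regions, 5 lay within 1 kb and 7 within 10 kb, and a member was nearest for 14 and another gene for 18. Introns held 8 of the myogenin and 10 of the p300 centers, exons held 3 and 2, and the others were intergenic (12 and 20). Centers inside the body of a member were 3 for myogenin and 4 for p300. These are descriptions of 2 lists of regions, and the difference between the factors was not tested. The same shares over all myogenin and all p300 regions were not computed, so the difference was not shown to be particular to these genes.

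With 1 exception, the myogenin regions that overlapped p300 near these genes were the shared ones. All 5 shared myogenin regions overlapped a p300 region of either condition, against 51.0% of all shared myogenin regions in the genome. They were the promoters of Chrna1, Chrnb1 and Chrng, the Musk region 16.773 kb upstream and the Rapsn region 25.414 kb downstream. Overlap with p300 was found for 0 of 6 control-only and for 1 of 12 bexarotene-only myogenin regions, against 22.8% and 30.9% in the genome. With an overlap of 50% of each region, 3 of the 5 shared regions were left (Chrna1, Chrng and Rapsn; 36.3% of all shared regions), and 0 of 6 and 0 of 12 in the other classes (8.73% and 15.1%). Within a condition, 5 of the 11 control myogenin intervals overlapped a control p300 interval (45.5%, all myogenin intervals 33.0%), and 3 of the 17 bexarotene intervals overlapped a bexarotene p300 interval (17.6%, all 25.6%). The bexarotene p300 list is shorter than the control list, and 6 of the 17 bexarotene myogenin intervals overlapped a control p300 interval (35.3%, all 36.1%).

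The length of an interval was the only graded quantity in the lists. In 10 of the 11 shared p300 regions the control interval was the longer, with medians of 334 bp in control and 158 bp with bexarotene and a median ratio of 1.58. Over the 6592 shared p300 regions in the genome with 1 interval of each list, not both of the smallest length, the control interval was longer in 89.2%, with a median ratio of 1.56, so the genes followed the lists. The exception was the Rapsn region, at 159 bp in control and 291 bp with bexarotene. Of the 5 shared myogenin regions, the one upstream of Musk had the smallest length of each list and allows no comparison. Of the other 4, 3 were longer in control and 1, at Chrng, was longer with bexarotene, and over the 2514 such regions in the genome 45.5% were longer in control. At Chrna1 and Rapsn the control myogenin intervals were 465 and 513 bp and the bexarotene intervals 303 and 323 bp.

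Many intervals had exactly the smallest length of their list, 172 and 168 bp for myogenin and 159 and 158 bp for p300 in control and with bexarotene. Near the genes these were 5 of 11 and 8 of 17 myogenin intervals, and 10 of 31 and 7 of 12 p300 intervals. In the whole lists 54.8% and 50.0% of the myogenin intervals and 34.3% and 48.9% of the p300 intervals had that length. Without such intervals, 2 control-only and 5 bexarotene-only myogenin regions were left, and both bexarotene-only regions of Musk were among those lost.

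E-boxes were counted in all regions of both factors. Of the 23 myogenin regions, 14 had an E-box at most 50 bp from their center (60.9%, 95% Wilson interval 40.8 to 77.8, which covers counting error only), against 50.2% of all myogenin regions. By class these were 1 of 6 control-only regions (16.7%, 3.01 to 56.4), 4 of 5 shared regions (80.0%, 37.6 to 96.4) and 9 of 12 bexarotene-only regions (75.0%, 46.8 to 91.1). The intervals of these classes overlap, and no difference between them was tested with these few regions. In the genome the same order was 27.8%, 69.8% and 52.0%. Anywhere in the region, an E-box was found in 18 of the 23 (78.3%, all 67.0%), in 2 of 6 control-only (33.3%, all 42.2%), 5 of 5 shared (all 91.0%) and 11 of 12 bexarotene-only regions (91.7%, all 67.3%).

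Of the 32 p300 regions, 8 had a central E-box of this kind (25.0%, 13.3 to 42.1), against 19.9% of all p300 regions. Whole regions held one in 16 of 32 (50.0%, all 38.2%). Of the E-boxes counted in whole myogenin regions, 19 were CAGCTG and 14 were CACCTG or its reverse complement. In the control-only myogenin regions the split was 3 and 2, in the shared regions 8 and 3, and in the bexarotene-only regions 8 and 9. Within 50 bp of the center, CAGCTG was found in 0 of 6, 4 of 5 and 4 of 12 of these regions, against 18.6%, 57.1% and 40.8% of all regions of these classes. Of the E-boxes counted in whole p300 regions, 17 were CAGCTG and 6 were CACCTG or its reverse complement.

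**Figure D4:**
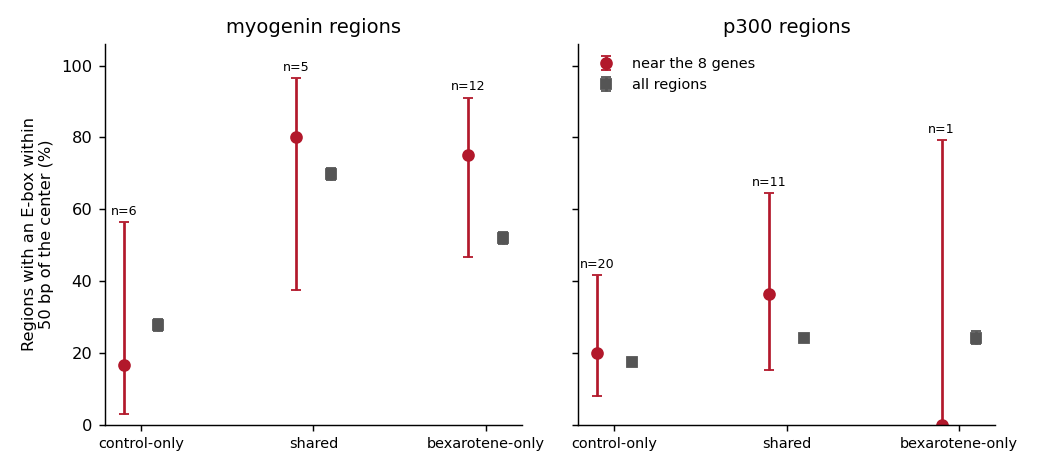
Percentage of regions with an E-box within 50 bp of the center (y axis) by class (x axis) for myogenin (left) and p300 (right), near the 8 genes (red circles) and over all regions (gray squares), with bars for 95% Wilson intervals. Near the genes the myogenin shares are 16.7%, 80.0% and 75.0% for control-only, shared and bexarotene-only regions, with wide intervals.

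Other short sequences were searched for on either strand, up to 100 bp from each center. The N-box CCGGAA was found in 4 of 23 myogenin regions (17.4%, 6.98 to 37.1; all 4.13%) and in 2 of 32 p300 regions (6.25%, all 4.28%). The 4 were the control-only region in intron 1 of Chrna1, the control-only region near Polr2a, the bexarotene-only region 1.791 kb upstream of Chrng and the bexarotene-only region in intron 1 of Musk. They lay 884, 316, 1791 and 957 bp from the nearest coding TSS. Of all promoters, which are longer than these windows, 17.5% held an N-box. The comparison with all myogenin regions did not take the distance to a TSS into account. A bZIP site, TGACTCA or TGAGTCA as AP-1 factors bind, was found in 2 of 23 myogenin regions (8.70%, all 11.1%), 1 of them the Chrna1 promoter, and in 10 of 32 p300 regions (31.2%, all 26.7%). The Runx letters TGTGGT were found in 4 of 23 (17.4%, all 26.1%) and 6 of 32 (18.8%, all 30.2%), and the Tead letters GGAATG in 5 of 23 (21.7%, all 17.3%) and 5 of 32 (15.6%, all 18.3%). The nuclear receptor half-site AGGTCA was found in 4 of 23 (17.4%, all 13.3%) and 4 of 32 (12.5%, all 10.9%), and 2 copies of it 1 base apart, the direct repeat of retinoid X receptor homodimers, in 0 of 23 and 0 of 32, against 0.0314% and 0.0167% of all regions. A match is a description of the letters in the window and not evidence of binding, and no match says nothing about the factor.

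The rest of the neuromuscular junction was examined through 27 further genes. Of these, 13 and 13 had a myogenin interval within 50 kb and 16 and 12 a p300 interval (control, then bexarotene), and 8 had none in any list. Over all genes the shares with an interval were 32.3%, 32.9%, 53.8% and 35.2%, as given above. The share of all genes with none in any list was not computed. Myogenin regions at a TSS were found for 4: a shared region 764 bp upstream of Erbb3, a neuregulin receptor, with 2 E-boxes, a bexarotene-only region 93 bp inside Crk, an adaptor recruited by Dok7, and control-only regions 426 bp upstream of Etv5, an Ets factor of synaptic transcription, and 151 bp upstream of Apc. The p300 regions at a TSS were control-only at Abl2 and Nrg1, which encodes neuregulin, and bexarotene-only at Pak1. By class, a myogenin region at a TSS was thus found for 1 of the 27 genes if shared (1.16% of all genes), 1 if bexarotene-only (2.68%) and 2 if control-only (5.13%). A p300 interval at a TSS is found for 10.6% of all genes in control and 5.23% with bexarotene.

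The genes of this list with most regions were Sntb1, a syntrophin, with 21 (3 and 4 myogenin intervals and 15 and 11 p300 intervals) and Utrn, the dystrophin relative of the junction, with 12 (3 and 3, 9 and 7). Erbb3 had 8 (5 and 4 myogenin intervals, 0 and 1 p300 intervals), and Nrg1, Nes and Pak1 had 7 each. These are plain numbers that do not allow for the length of each gene, and densities per 100 kb of window were not computed for this list. Of the partners of MuSK, Dok7 had 1 and 2 myogenin and 3 and 1 p300 intervals, Lrp4 had 1 and 0 and 4 and 2, and Agrn had none. Colq, the collagen tail that anchors acetylcholinesterase, had 2 and 2 myogenin intervals and 1 and 0 p300 intervals.

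The nicotinic receptor subunits of neurons and other tissues were set beside the muscle subunits. Of 11 such genes, 7 had no interval of any list within 50 kb, and the share of all genes without any was not computed. None of the 11 had a region within 1 kb of a TSS. Of all genes, 6.05% and 3.72% had a myogenin interval there and 10.6% and 5.23% a p300 interval (control, then bexarotene). With shares this low, 0 of 11 is no result about these genes. By list, 2 and 2 had a myogenin interval and 2 and 1 a p300 interval, at or below the shares of all genes given above. Chrna9 had a shared myogenin region 2340 bp inside the gene with 2 E-boxes and a bexarotene-only region 23008 bp upstream. Chrna2 had a shared myogenin region nearest to Ephx2, Chrna10 a control-only p300 region nearest to Rnf121, and Chrnb2 a shared p300 region 8751 bp upstream that was nearest to 4632404H12Rik, at 143 bp. Of the 5 muscle subunits, 4 had a region of either factor at the TSS. The share of all genes with a region of either factor there was not computed, and no difference between the muscle and the other subunits was tested.

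The counts over the 4 lists placed Musk and Chrnd, the members with most intervals, beside genes of other kinds. For Musk (1, 3, 11 and 4 intervals) the closest were Sgms1 (1, 3, 12 and 4), Ddah1 (1, 3, 10 and 4) and Srgap3 (0, 3, 11 and 4), each with a summed difference of 1. For Chrnd (1, 3, 6 and 3) AC141469.5, Polr2b and Arhgap22 had the same 4 counts. Likeness was measured over these 4 lists alone, and ties were ordered by the difference in length of covered sequence.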

How the data were processed

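ChIP-seq was performed on C2C12 cells. Reads were aligned to mm9 by the authors, using BWA-MEM for myogenin and Bowtie for p300, duplicates were taken out with Picard, and HOMER called peaks in each library by itself. The deposited lists hold a chromosome, start and end per interval, in bp, and neither tag counts nor scores, so they do not show the depth of each library and the calling threshold could not be varied. The input and H3K27me3 samples were not analysed here.

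Starts were converted to count from 1. The reference genome and GENCODE vM1 annotation have the build of the lists, and chromosome names and interval ends were checked against it. Intervals were assigned to a gene within 50 kb of its body, to a start within 1 kb of a TSS of a protein-coding transcript, and to a feature by the longest coding transcript. Motifs were searched on both strands. Promoter sequences were read from mm9, since the RefSeq table at hand has another build. The members and lists were chosen with earlier results of these data known. All 8 members and all their intervals are given. Of the 27 junction genes, those with a region at a TSS and those with most regions are named, ties included, except 1 that is not reported here, and of the 11 other nicotinic subunits all with a region. Dok7, Lrp4, Agrn and Colq were added after their values were seen. The alternatives changed the window, the assignment, the overlap, the E-box and its window, the TSS set and the smallest intervals. Computations used Python 3.11.15, numpy 2.4.6, pandas 2.3.3, scipy 1.17.1, pysam 0.24.0 and matplotlib 3.10.9, and the overlap and motif functions were tested on simulated data.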

Additional observations from a re-analysis of the deposited data

How the results depend on the processing

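The counts depended on what was taken as near a gene, since fewer intervals qualify under a narrower rule. Within 10 kb in place of 50 kb, the myogenin intervals fell to 5 (control) and 9 (bexarotene) and the p300 intervals to 10 and 4. When the nearest TSS had to be that of a member, they were 6, 8, 14 and 6, and 4 genes had a myogenin region. Within 100 kb they were 12, 20, 40 and 16. Without intervals of the smallest length, 6 and 9 myogenin intervals and 5 bexarotene p300 intervals were left, with 2 control-only and 5 bexarotene-only myogenin regions and 4 shared p300 regions. With an overlap of 50% of each interval, shared p300 regions numbered 7, bexarotene-only p300 regions 5 and myogenin regions overlapping p300 3. An E-box anywhere in the region was found in 78.3% of myogenin and 50.0% of p300 regions, and any CANNTG within 50 bp of the center in 53.1% of p300 regions. An alternative chosen after seeing the data, the longest control p300 intervals cut to the number of the bexarotene list, left 13 control p300 intervals. In all, 22 values moved and 18 did not, counting as unmoved a count within 1.5 times of the reported one and a percentage within its 95% Wilson interval. No paired analysis was possible because each group has 1 library. The depth of each library, which the lists do not show, limits any statement about an interval called in 1 condition only.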
